A study of Mus musculus with 6 samples.

Results

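The Toll-like receptors of F4/80+ cells from implanted tumours were compared between St2-/- and wild type host mice. The family was taken as a list of 10 mouse receptors, and for each gene the probe set with 1 gene symbol in the platform annotation was used. Of the 10 receptors 9 had such a probe set, among 19938 genes tested, and each of the 9 had only 1. Tlr5, the receptor for bacterial flagellin, is not analysed here. Expression was measured on Affymetrix Gene 1.0 ST arrays in 3 samples from tumours implanted in St2-/- mice and 3 samples from tumours implanted in wild type mice, 1 array per sample. F4/80 marks mouse macrophages at their surface, and ST2 binds the cytokine IL-33. The label says that the host lacked St2; it gives neither the tumour, nor the mouse strain, age or sex, nor the ST2 status of the tumour cells. Separate animals behind the samples of a group are not stated, so the spread that p-values measure here is that of these samples and may be technical.

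Toll-like receptors recognise microbial molecules and nucleic acids. Those at the cell surface bind lipids and proteins of microbes: TLR4 with MD-2 binds lipopolysaccharide, and TLR2 pairs with TLR1 or TLR6 to bind lipopeptides. Those in endosomes bind nucleic acids: TLR3 binds double-stranded RNA, TLR7 and TLR8 single-stranded RNA and its breakdown products, TLR9 DNA with unmethylated CpG, and TLR13, a mouse receptor, a sequence in bacterial ribosomal RNA. Most of these receptors signal through the adaptor MyD88, TLR3 signals through TRIF (gene Ticam1), and TLR4 uses both, which leads to NF-kB and interferon regulatory factors. Macrophages are among the cells best known for using them.

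Levels are the authors' deposited log2 RMA values, and differences are St2-/- minus wild type on that scale. A gene was called higher or lower where limma's adjusted p (Benjamini-Hochberg over all genes) was under 0.05. Array values of different probe sets cannot be set against one another, so each receptor is compared only with itself. In a sorted population, fewer cells of a type and less RNA per cell cannot be told apart. Arrays of the same group correlated at 0.996 to 0.998, and arrays of different groups at 0.986 to 0.988. The genotype labels could not be checked against the ST2 gene, which is not analysed here. The F4/80 label was checked against macrophage markers. Adgre1, the gene of F4/80 itself, had a mean of 11.63 in St2-/- and 11.32 in wild type and was called higher. Csf1r had 12.11 and 12.07, and Cd68 12.53 and 12.57. Among all 8 macrophage markers, Fcgr1 and Aif1 were also called higher, and Mertk, Lyz2 and Msr1 lower. Csf1r and Cd68 were not called.

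Endosomal receptors moved in both directions and included Tlr9, which changed most among the 9 measured receptors of the list. Of the 9 receptors measured, Tlr9, Tlr3, Tlr7 and Tlr1 rose and Tlr8 fell in St2-/- samples, while Tlr2, Tlr4, Tlr6 and Tlr13 were not called. That is 5 of 9 called, against 20.8% of all genes tested and 30.4% of the brighter 60% of genes, to which all 9 belong. By direction, 4 of 9 were called higher, against 10.7% of all genes, and 1 of 9 lower, against 10%. With the dimmest 40% of genes left out of the fit, 4 of 9 were higher, against 21.4%, and 1 of 9 lower, against 16.3%. With each array centred on its median, 4 of 9 were higher, against 18.5% of all genes, and 0 of 9 lower, against 6.49%. The groups did not overlap for these same 5 of 9, against 36.4% of all genes.

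The promoters of 3 of these receptors are shown because their genes had the greatest rises, Tlr9 and Tlr3, and the only fall, Tlr8, and that of Tlr6 because it held matches to the interferon-stimulated response element. Sequences are from RefSeq (GRCm38.p6), run 5′ to 3′ in the direction of the gene and hold 250 bases before and 50 after the annotated start. Capitals mark matches to a motif on either strand.
Tlr9, chr9:106222348-106222647, plus strand: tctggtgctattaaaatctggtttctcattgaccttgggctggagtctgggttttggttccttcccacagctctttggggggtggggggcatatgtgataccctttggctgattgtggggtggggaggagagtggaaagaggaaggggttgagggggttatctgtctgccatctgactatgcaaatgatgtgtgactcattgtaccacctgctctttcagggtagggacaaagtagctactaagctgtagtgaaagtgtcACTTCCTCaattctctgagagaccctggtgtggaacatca
Tlr3, chr8:45410331-45410630, minus strand: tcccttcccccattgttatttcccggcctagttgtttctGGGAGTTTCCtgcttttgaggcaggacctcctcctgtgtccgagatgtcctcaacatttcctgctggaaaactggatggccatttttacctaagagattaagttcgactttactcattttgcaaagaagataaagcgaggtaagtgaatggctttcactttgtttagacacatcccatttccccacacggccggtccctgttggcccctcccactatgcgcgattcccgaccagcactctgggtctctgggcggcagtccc
Tlr8, chrX:167264280-167264579, minus strand: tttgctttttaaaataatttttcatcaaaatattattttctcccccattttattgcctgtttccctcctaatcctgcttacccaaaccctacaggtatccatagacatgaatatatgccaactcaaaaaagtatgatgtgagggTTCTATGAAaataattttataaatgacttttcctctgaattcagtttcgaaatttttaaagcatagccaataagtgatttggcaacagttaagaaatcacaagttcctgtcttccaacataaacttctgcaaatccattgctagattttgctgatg
Tlr6, chr5:64959117-64959416, minus strand: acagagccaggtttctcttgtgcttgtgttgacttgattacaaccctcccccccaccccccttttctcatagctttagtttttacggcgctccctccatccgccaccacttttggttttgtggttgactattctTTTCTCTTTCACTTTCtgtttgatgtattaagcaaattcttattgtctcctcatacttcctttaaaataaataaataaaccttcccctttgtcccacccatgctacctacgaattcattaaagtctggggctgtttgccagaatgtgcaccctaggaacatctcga

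The motifs searched were the interferon-stimulated response element, the gamma-activated site TTCNNNGAA, the PU.1 motif GAGGAAGT and the NF-kB motif. PU.1 is a lineage factor of myeloid cells. In the table, 7 of the 9 measured receptors had 9 windows in all, since Tlr1 and Tlr6 had 2 each. Of all 32851 promoter windows, 3.44% held the first motif, 8.3% the second, 3.2% the third and 8.46% the NF-kB motif. The capitals in Tlr9 are a PU.1 match on the opposite strand that begins 11 bases into the transcript. The capitals in Tlr3 are an NF-kB match at -211, those in Tlr8 a gamma-activated site match at -106, and those in Tlr6 overlapping interferon element matches on the opposite strand at -116 and -110. Among the windows not shown, those of Tlr1 had a gamma-activated site match at -228 and, in the other window, a PU.1 match at -23. The other window of Tlr6 had gamma-activated site matches at -3 and 8, Tlr2 had NF-kB matches at -173 and -172, which overlap, and at -8, and Tlr13 had no match. In all, of the 9 windows 1 held the interferon element, 3 a gamma-activated site, 2 a PU.1 match and 2 an NF-kB match. A match is a stretch of letters, and no binding was measured here.

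Tlr9, the receptor for unmethylated CpG DNA (probe set 10588479), had 9.88, 9.72 and 9.73 in the St2-/- samples, against 8.67, 8.58 and 8.76 in the wild type samples. The lowest St2-/- array stood well above the highest wild type array, by far more than the spread within either group. The means were 9.78 ± 0.09 in St2-/- and 8.67 ± 0.09 in wild type (SD, n = 3 each), a log2 difference of 1.11 ± 0.08 (SE) or a 2.15-fold higher level (limma adjusted p = 7.64e-06). It was the only receptor of the 9 that was called and changed by at least 2-fold, which 1.53% of all genes were and did. Its absolute difference was larger than that of 98.8% of all genes.

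Tlr3, the receptor for double-stranded RNA (probe set 10578493), had 7.87, 7.98 and 7.99 in St2-/- samples, against 7.20, 7.37 and 7.52 in wild type samples. The groups did not overlap, and the wild type arrays were the more widely spread. The log2 difference was 0.58 ± 0.09 (SE), a 1.5-fold higher level in St2-/- (limma adjusted p = 0.00118). Tlr7, which binds single-stranded RNA (probe set 10607870), had 8.62, 8.56 and 8.64 in St2-/- samples, against 8.29, 8.38 and 8.27 in wild type samples. The St2-/- arrays again all stood higher, by a log2 difference of 0.29 ± 0.06 (SE; limma adjusted p = 0.00999).

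Tlr8, the direct neighbour of Tlr7 on the X chromosome (probe set 10607868), went the other way. It had 9.14, 9.15 and 9.14 in St2-/- samples, against 9.34, 9.44 and 9.34 in wild type samples. The St2-/- arrays were nearly equal and all lower, by -0.23 ± 0.06 (SE; limma adjusted p = 0.0273). This call was lost when each array was centred on its median (difference -0.14, adjusted p = 0.17), and without wild type replicate 2 or any 1 of the St2-/- replicates (adjusted p from 0.0691 to 0.0856). With the replicate number as a block it was 0.0568. Tlr13, the receptor for bacterial ribosomal RNA, also on X (probe set 10601385), had 10.22, 10.21 and 10.15 in St2-/- samples, against 10.15, 10.08 and 10.05 in wild type samples. The groups met at 10.15, and the log2 difference of 0.10 had a 95% interval of -0.04 to 0.24.

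Tlr7, Tlr8 and Tlr13 lie on the X chromosome, and the labels do not give the sex of the mice. Xist, the RNA of the inactive X, had 11.12, 11.07 and 11.15 in St2-/- samples, against 11.02, 11.05 and 11.03 in wild type samples. The Y-linked genes Eif2s3y, Kdm5d and Uty had means of 2.96, 3.31 and 3.31 in St2-/- and 2.84, 3.44 and 3.23 in wild type, near the smallest value in the table, 2.02. These 4 genes were not called.

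**Figure D1:**
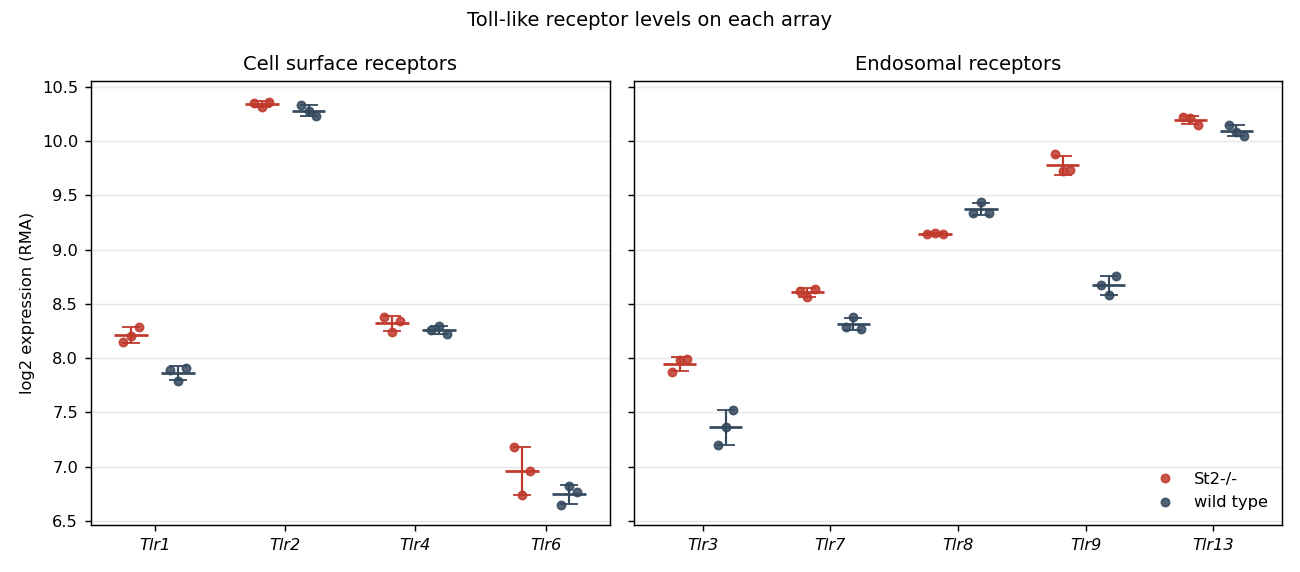
Level of each measured Toll-like receptor (vertical axis, log2 RMA expression; horizontal axis, receptor) in St2-/- samples and wild type samples. Points are arrays, 3 per group, and bars are means with SD; Tlr9 stood between 9.72 and 9.88 in St2-/- and between 8.58 and 8.76 in wild type, while Tlr2 and Tlr4 overlapped.

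Among the surface receptors, Tlr1 was called and the other 3 measured were not. Tlr1, a partner of TLR2 in binding triacylated lipopeptides (probe set 10530145), had 8.15, 8.20 and 8.29 in St2-/- samples, against 7.89, 7.79 and 7.91 in wild type samples. All St2-/- arrays were higher, and the log2 difference was 0.35 ± 0.07 (SE; limma adjusted p = 0.00557). Tlr6, the partner of TLR2 for diacylated lipopeptides and the direct neighbour of Tlr1 on chromosome 5 (probe set 10530151), had 7.18, 6.74 and 6.96 in St2-/- samples, against 6.65, 6.82 and 6.77 in wild type samples. St2-/- replicate 2 lay among the wild type arrays, and the St2-/- spread (SD 0.22) was the widest of the 9 receptors in either group. Its log2 difference of 0.21 had a 95% interval of -0.03 to 0.45 (limma adjusted p = 0.199). Tlr1 and Tlr6 are close paralogs, and whether their probes cross-hybridise was not tested.

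Tlr2, the shared partner of both (probe set 10498992), had 10.35, 10.31 and 10.36 in St2-/- samples, against 10.33, 10.28 and 10.23 in wild type samples. Tlr4, the lipopolysaccharide receptor (probe set 10505517), had 8.38, 8.24 and 8.34 in St2-/- samples, against 8.26, 8.30 and 8.22 in wild type samples. In both the groups overlapped, and both differed by 0.06. The 95% intervals were -0.08 to 0.20 for Tlr2 and -0.09 to 0.21 for Tlr4, so no change within these bounds is excluded. Limma's adjusted p was 0.552 for Tlr2 and 0.579 for Tlr4.

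Set side by side, 3 of 5 endosomal receptors were higher, 1 was lower and 1 was not called, and their log2 differences had a median of 0.29 and a range from -0.23 to 1.11. Of 4 surface receptors 1 was higher and 3 were not called, with a median of 0.14 and a range from 0.06 to 0.35. The median over all genes was -0.02. The surface median was 0.23 with each array centred on its median, 0.089 after cyclic loess, 0.079 without St2-/- replicate 1 and 0.21 without St2-/- replicate 2. The ranges of the classes overlap, since the estimate for Tlr1 was above those for Tlr7, Tlr13 and Tlr8. The difference between the classes was not tested.

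**Figure D2:**
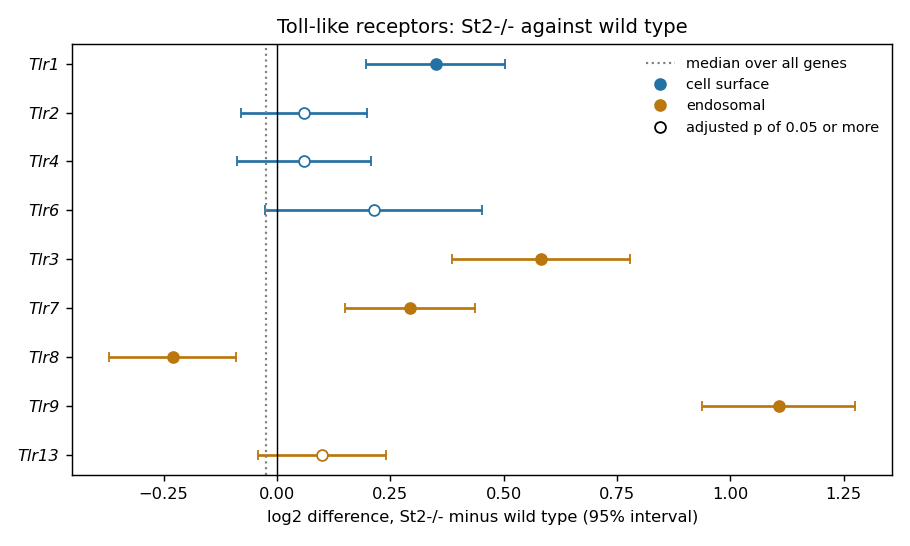
Log2 difference of each receptor, St2-/- minus wild type (horizontal axis), with its 95% interval from limma; filled points passed an adjusted p of 0.05 and open points did not, and the dotted line is the median over all genes. Tlr9 stands apart at 1.11, Tlr8 lies below 0, and the intervals of Tlr2, Tlr4, Tlr6 and Tlr13 reach across 0.

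A further mouse receptor that was not on the list, Tlr12, which binds profilin of the parasite Toxoplasma together with TLR11 (probe set 10516518), had 7.32, 6.95 and 6.87 in St2-/- samples, against 6.0, 5.65 and 5.94 in wild type samples. The groups did not overlap, and the log2 difference was 1.18 ± 0.13 (SE; limma adjusted p = 0.000147). That is a 2.27-fold higher level in St2-/-, and the estimate was above the 1.11 of Tlr9. Tlr11 is not analysed here. The genes whose 6 values went most like those of Tlr9 were Trafd1 (Pearson r = 0.999), Psmb9 (0.999), Klra3 (0.999), Slc16a10 (0.999) and Mcm5 (0.998). These correlations are over 6 arrays that fall into 2 separate groups, and a gene that differs between the groups has a high value for that alone.

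The proteins that work with surface receptors were mixed. Beside the counts of this and each later list, 10.7% of all genes tested were called higher and 10% lower. Of the brighter 60% of genes 30.4% were called in either direction. Of 8 measured, Cd36, Cd180 and Ly86 were higher, Cd14 and Lbp were lower, and Ly96 (MD-2, the TLR4 partner), Itgam and Itgb2 were not called, and the median was 0.09 on the log2 scale. Cd36, a scavenger receptor that assists TLR2 with TLR6, had 8.27, 8.34 and 8.36 in St2-/- samples, against 6.71, 6.85 and 6.71 in wild type samples, a difference of 1.57. Cd180, a relative of TLR4 that pairs with MD-1 (gene Ly86), had 12.20, 12.15 and 12.19 in St2-/-, against 11.70, 11.71 and 11.63 in wild type, and Ly86 differed by 0.30. Cd14, which hands lipopolysaccharide to TLR4, had 9.40, 9.40 and 9.42 in St2-/-, against 9.82, 9.82 and 9.64 in wild type, a difference of -0.35 (limma adjusted p = 0.00608). Lbp, the lipopolysaccharide-binding protein that loads Cd14, differed by -0.84. It had 4.86, 4.25 and 5.02 in St2-/- samples (SD 0.41), against 5.47, 5.50 and 5.69 in wild type samples. These values are low, below the arrays' medians over tested genes of 5.81 to 5.93. Cd14 and the dim Lbp were called lower, while Tlr4 and Ly96 were not called.

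Genes that deliver, process or supply endosomal receptors went both ways. Of 16 measured, 5 were higher (Unc93b1, Slc29a3, Slc15a3, Pld4 and 5430427O19Rik), 2 lower (Ctsl and Pld3) and 9 not called, and their median was 0.12. Unc93b1, the chaperone that carries nucleic acid receptors from the endoplasmic reticulum to endosomes, had 11.53, 11.46 and 11.48 in St2-/- samples, against 11.01, 11.08 and 11.09 in wild type samples, a difference of 0.43 (limma adjusted p = 0.000921). Slc29a3, a lysosomal nucleoside transporter, had 10.82, 10.74 and 10.74 in St2-/-, against 10.09, 9.86 and 9.88 in wild type, a difference of 0.82. Ctsl, a cathepsin that can cleave endosomal receptors, had 9.59, 9.56 and 9.51 in St2-/-, against 10.33, 10.28 and 10.09 in wild type, a difference of -0.68. The exonuclease genes Pld4 and Pld3, whose products degrade single-stranded nucleic acids in endolysosomes, differed in opposite directions, by 0.42 and -0.25.

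Among 6 adaptors, Pik3ap1 and Ticam1 were higher and 4 were not called (median 0.09). Pik3ap1, which links the receptors to PI3 kinase, had 11.38, 11.34 and 11.35 in St2-/- samples, against 10.78, 10.82 and 10.66 in wild type samples, a difference of 0.60. Ticam1 (TRIF), the adaptor of TLR3, had 7.95, 7.89 and 7.89 in St2-/-, against 7.55, 7.46 and 7.46 in wild type, a difference of 0.42 (limma adjusted p = 0.00116). Myd88, named after its values were seen, differed by 0.13 and was not called in the main fit. Under the alternatives its limma adjusted p ranged from 0.0371 to 0.789, and 1 of them called it higher. Tirap, which bridges TLR2 and TLR4 to MyD88, differed by -0.18 (limma adjusted p = 0.219).

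Of 17 measured kinases and ubiquitin ligases 4 were higher (Irak2, Peli1, Tbk1 and Tab2), 1 lower (Peli2) and 12 not called, with a median of 0.07. Irak2, a kinase recruited with MyD88, had 9.01, 9.08 and 9.14 in St2-/- samples, against 8.20, 8.26 and 8.22 in wild type samples, a difference of 0.85. Tbk1, the kinase that activates IRF3 downstream of TRIF, differed by 0.37, and the ubiquitin ligase gene Peli1 by 0.52. Of 11 measured transcription factors, 4 interferon regulatory factors were higher (Irf7, Irf8, Irf1 and Irf5), Nfkbiz was lower and 6 were not called (median 0.08). Irf7, which carries TLR7 and TLR9 signals to interferon genes in plasmacytoid dendritic cells, had 11.17, 11.05 and 11.09 in St2-/-, against 9.90, 10.04 and 9.99 in wild type, a difference of 1.13. Irf8 differed by 0.72 and Irf1 by 0.61. Irf3 (difference -0.05), Atf3 and the NF-kB subunit genes Nfkb2, Rel, Rela and Relb were not called.

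Inhibitors of the pathway were split. Of 17 measured, 6 were higher, 5 lower and 6 not called, with a median of 0.06. Tnip1, a partner of the A20 inhibitor, had 8.64, 8.58 and 8.69 in St2-/- samples, against 7.78, 7.75 and 7.82 in wild type samples. Irak3, the kinase relative that restrains MyD88 signalling, had 9.35, 9.33 and 9.36 in St2-/-, against 8.73, 8.81 and 8.65 in wild type. These differed by 0.85 and 0.62, and the RNA-degrading factor gene Zfp36 differed by -0.60. Also higher were Trafd1 (0.59), Bcl3 (0.50), Cyld (0.38) and Socs1 (0.29). The other 4 that were lower were Nfkbia, Tnfaip3, Dusp1 and Otud7b.

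Target genes of inflammatory signalling were split too. Of 21 measured, 5 were higher (Ccl5, Nos2, Acod1, Il1b and Il10), 4 lower (Cxcl2, Tnf, Il1a and Il23a) and 12 not called, with a median of 0.06. Ccl5, a chemokine, had 9.82, 9.73 and 9.83 in St2-/- samples, against 8.28, 8.26 and 8.23 in wild type samples, a difference of 1.54. Nos2, the inducible nitric oxide synthase, differed by 1.38, and Cxcl2, a neutrophil attractant, had 9.30, 9.29 and 9.33 in St2-/-, against 10.29, 10.32 and 10.15 in wild type, a difference of -0.95. Ccl5 and Nos2 are also induced by interferon. In the same list Cxcl10 (difference 0.01) and the interferon gene Ifnb1 (0.23) were not called.

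Cytosolic sensors of nucleic acids, which work apart from the Toll-like receptors, were higher in 7 of 8 measured genes, with a median of 0.40. Dhx58, an RNA helicase of the RIG-I family, differed by 0.84, Zbp1, a sensor of Z-form nucleic acid, by 0.78, and Sting1, the adaptor of the cGAS pathway, by 0.42. Mavs, the adaptor of RIG-I, was the 1 not called. Over all 9 lists of pathway and related genes, 105 genes were measured, of which 37 were higher, 15 lower and 53 not called, with a median of 0.09, beside 10.7% higher and 10% lower among all genes. Of these 52 called genes 43 kept their call under every alternative that tested them. The other 9 lost it under at least 1: Socs1 under 6, Pld3 under 5, Il23a under 4, Il10 under 3, Ly86, Tab2 and Dusp1 under 2 each, and Nfkbiz and Cgas under 1 each, with limma adjusted p-values from 0.0502 to 0.123.

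**Figure D3:**
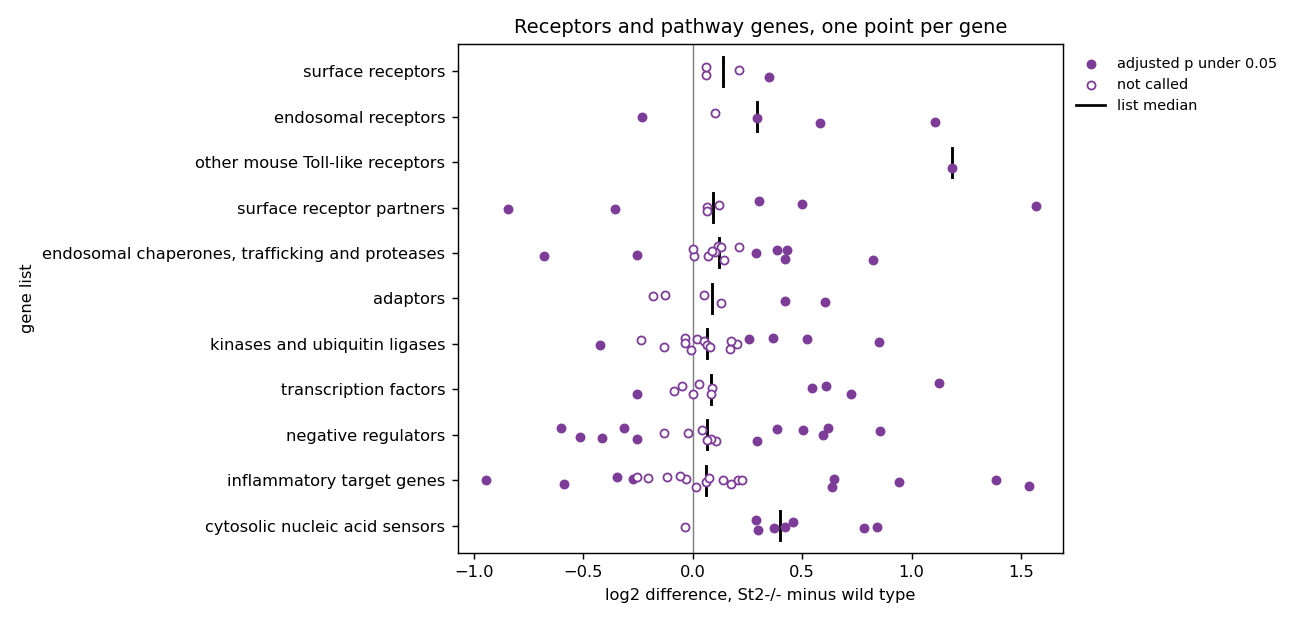
Log2 difference, St2-/- minus wild type (horizontal axis), of each receptor and pathway gene by list (vertical axis); filled points passed an adjusted p of 0.05, open points did not, and black marks are list medians. Cytosolic sensors lie on the right with a median of 0.40, and inhibitors and target genes spread to both sides with medians of 0.06.

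Several other cell types use these receptors, so their markers are given beside the results; their part in the receptors' differences was not tested. RMA values have no 0, so a marker without signal stands at a low value instead. For each marker list the share over all genes tested is 10.7% called higher and 10% called lower. Plasmacytoid dendritic cells and B cells, which are rich in Tlr9 and Tlr7, are taken first. Of 6 plasmacytoid markers 1 was higher and 5 not called, and their mean level per array was 6.45 to 6.48 in St2-/- and 6.39 to 6.47 in wild type. The higher one was Bst2, which interferon also induces, and Siglech averaged 4.87 in both groups. Of 6 B cell markers 2 were higher and 4 not called (10.7% of all genes were higher), with a mean level of 4.86 to 4.94 in St2-/- and 4.65 to 4.84 in wild type. These were Cd79b (difference 0.80) and the dim Ms4a1 (0.48, with means of 4.16 in St2-/- and 3.68 in wild type). Cd79a, the partner chain of Cd79b, averaged 3.67 in St2-/- and 3.90 in wild type and was not called.

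Conventional dendritic cells of the cross-presenting type are known for Tlr3. Of 8 dendritic cell markers 3 were higher, 2 lower and 3 not called, with a mean level of 6.33 to 6.44 in St2-/- and 5.52 to 5.69 in wild type. Xcr1, a chemokine receptor of the cross-presenting type, differed by 3.37, Itgax by 1.80 and Clec9a by 1.88, while Zbtb46 and Flt3 were not called (-0.24 and -0.01). Of 5 monocyte markers 1 was higher and 3 were lower, at a mean level of 8.12 to 8.18 in St2-/- and 8.44 to 8.57 in wild type. Of 9 neutrophil markers 1 was higher and 4 were lower, at 5.0 to 5.12 in St2-/- and 5.50 to 5.59 in wild type. Of 8 T and NK cell markers 4 were higher, at 4.56 to 4.66 in St2-/- and 4.25 to 4.36 in wild type.

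Fibroblasts and endothelial cells also carry Tlr3 and Tlr4. Of 7 fibroblast markers 6 were lower and 1 was higher, at 6.52 to 6.65 in St2-/- and 8.10 to 8.14 in wild type, with Dcn at -3.33. Of 7 endothelial markers 4 were lower and 2 higher, at 5.82 to 5.86 in St2-/- and 5.98 to 6.20 in wild type. Of 6 epithelial markers 1 was lower, at 6.15 to 6.21 in St2-/- and 6.18 to 6.32 in wild type. Of 8 macrophage markers 3 were higher and 3 lower, at 10.84 to 10.90 in St2-/- and 10.97 to 11.02 in wild type, with the phagocytic receptor genes Msr1 and Mertk at -0.76 and -0.72.

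**Figure D4:**
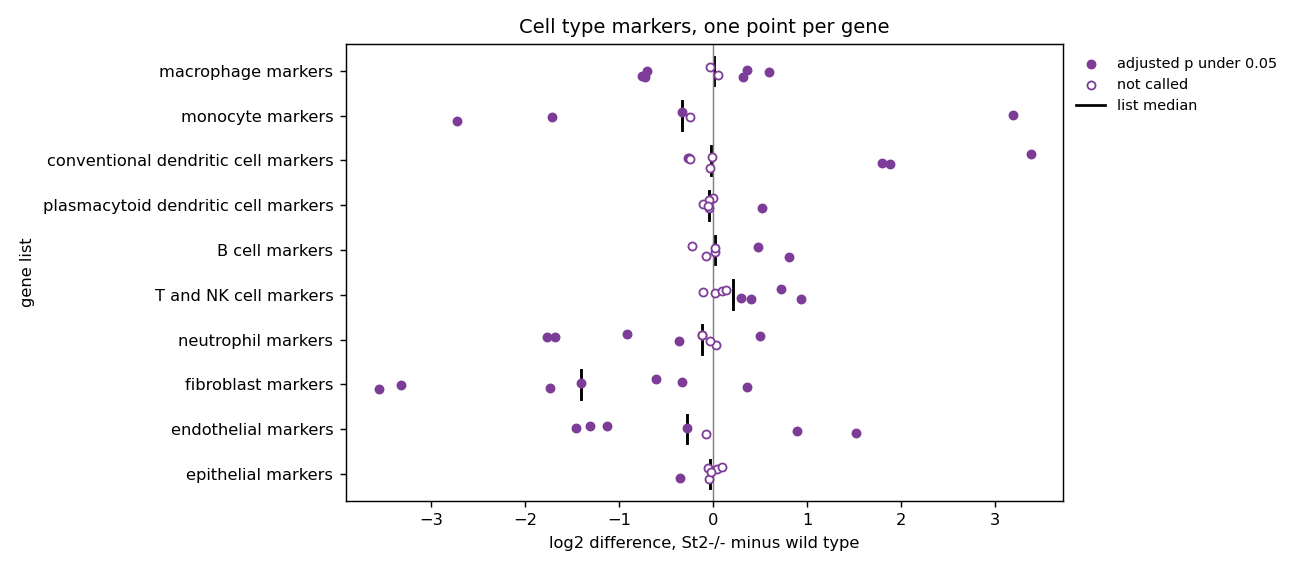
Log2 difference, St2-/- minus wild type (horizontal axis), of each cell type marker by list (vertical axis); filled points passed an adjusted p of 0.05, open points did not, and black marks are list medians. Fibroblast markers lie furthest to the left, and plasmacytoid and B cell markers lie near 0 apart from Bst2, Cd79b and Ms4a1.

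The receptor differences were recomputed under 15 other settings. Tlr1, Tlr3, Tlr7 and Tlr9 were called higher under each of them. The log2 difference of Tlr9 ranged from 1.01 to 1.2, that of Tlr3 from 0.50 to 0.67, that of Tlr1 from 0.28 to 0.44 and that of Tlr7 from 0.21 to 0.38, with limma adjusted p-values of at most 0.000471, 0.0105, 0.0298 and 0.0465.

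**Figure D5:**
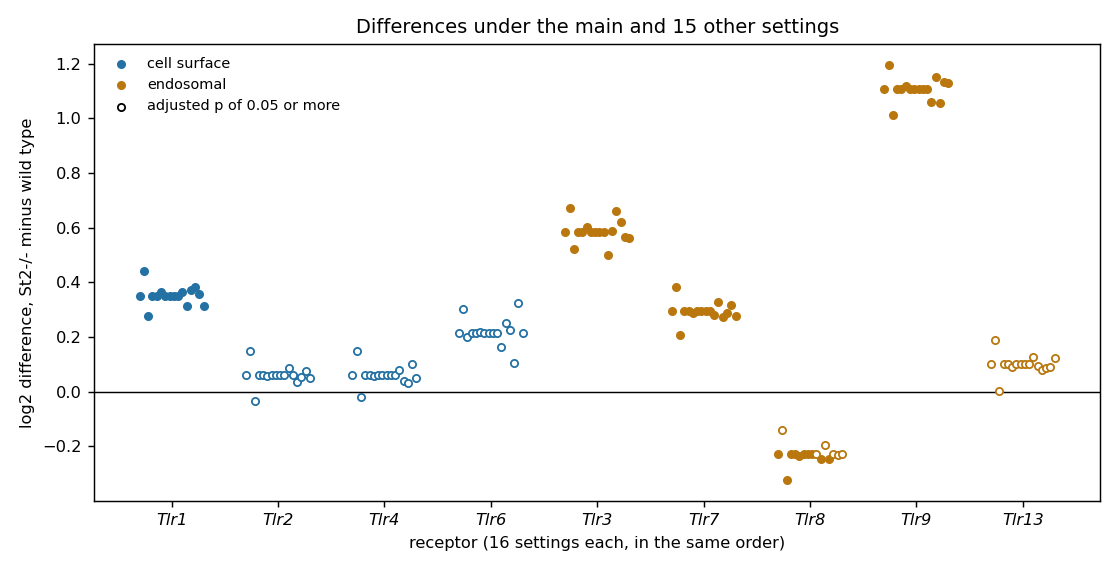
Log2 difference of each receptor, St2-/- minus wild type (vertical axis), under the main and 15 other settings, drawn in the same order for each receptor (horizontal axis); open points had an adjusted p of 0.05 or more. Tlr1, Tlr3, Tlr7 and Tlr9 are filled throughout, Tlr8 is open under 6 settings, and Tlr2, Tlr4, Tlr6 and Tlr13 are open throughout.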

How the data were processed

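The authors deposited 1 table of log2 expression values for 35556 probe sets on 6 arrays. RMA is the tool named in the submitters' processing notes; it corrects background, makes the arrays' quantiles equal and combines the probes of a set. No version or annotation is stated in the labels. The log base was taken as 2 because RMA returns that scale. Such scaling removes any change that most genes have in common, and the number of arrays limits precision.

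The platform annotation paired 21789 probe sets with 1 symbol, and the brightest one on average stood for each of 19938 genes. The groups were compared with limma (version 3.58.1, R version 4.3.3; lmFit, then eBayes; two-sided, Benjamini-Hochberg over all genes, no filter on dim genes). The fit was tested on simulated data of 19938 genes, of which 200 were changed. It recovered 5.5% of the genes with a log2 change of 0.25, 62.5% at 0.5, 96.9% at 1 and 100% at 2. In the real data 4140 genes were called, which makes the threshold on the unadjusted p looser. The simulated shares are therefore not the sensitivity of the real comparison. RefSeq tables (GRCm38.p6) gave chromosomes and promoters.

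The receptors, lists and settings were chosen with earlier results of these data known. All 9 measured receptors are named. Of each pathway list the 3 genes with the smallest p were to be named, of each marker list up to 2, and beside Tlr9 the 5 genes most correlated with it; other genes in the text were picked after their values were seen. Same-numbered samples did not deviate together (correlations from -0.048 to 0.012), so the numbers were not taken as pairs. The alternatives were array centring, cyclic loess, a trended or robust variance prior, array weights, leaving out the dimmest 40% of genes, averaging probe sets, all rows, the replicate number as a block and leaving out each array.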

Additional observations from a re-analysis of the deposited data

How the results depend on the processing

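Of the 5 called receptors, Tlr1, Tlr3, Tlr7 and Tlr9 kept their call under all 15 alternatives and Tlr8 lost it under 6, and the number called higher was 4 throughout. With each array centred on its median, which moved the median of all genes to 0.07, the number called lower was 0, the median difference was 0.38 for endosomal and 0.23 for surface receptors, and over all genes 3686 were called higher and 1294 lower. After cyclic loess the medians were 0.21 for endosomal and 0.089 for surface receptors, and the differences of the uncalled Tlr2 and Tlr4 turned to -0.036 and -0.021 (limma adjusted p = 0.729 and 0.855). With the replicate number as a block (the numbers did not pair the samples) 0 receptors were called lower, since Tlr8 had an adjusted p of 0.0568 with the block, and 4 were called higher. Leaving out each array in turn left 2887 to 3852 genes called, 1466 to 1894 higher and 1421 to 1958 lower. It left 0 to 1 receptors lower, an endosomal median of 0.27 to 0.33 and a surface median of 0.079 to 0.21, lowest without St2-/- replicate 1. Of the 52 called pathway genes 43 kept their call under every alternative that tested them. Nfkbiz lost it with arrays centred and Cgas without St2-/- replicate 3. Ly86 and Tab2 lost it after cyclic loess and without St2-/- replicate 3, and Dusp1 with arrays centred and without St2-/- replicate 2. Il10, Il23a, Pld3 and Socs1 lost it under 3 to 6 alternatives, and for each of these genes they included leaving out St2-/- replicate 3. The causes of these changes were not tested. With 3 arrays a group, small changes can be missed. A simulated log2 change of 0.25 was called in 5.5% of the genes given it, but only 200 genes were changed there. In the real data 4140 genes were called, and the smallest called absolute difference was 0.19. How often small changes were missed in the real data was not tested.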
